A study of Homo sapiens with 4 samples.

Results

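The genes of MHC class I antigen presentation were followed in RNA sequencing of the human cell line MDA-MB-231, which comes from a triple negative breast cancer, after knockdown of the histone demethylase KDM1A. The set was taken by gene symbol from the 4 count files. It holds 9 of the 23228 genes listed: the heavy chains HLA-B, HLA-C, HLA-E and HLA-F, the light chain B2M, the peptide transporter subunits TAP1 and TAP2, the loading factor TAPBP and the transactivator NLRC5. All 9 were found, and all 9 passed the filter on low counts.

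The KDM1A shRNA group had 2 libraries and the control shRNA group had 2. Both groups were the stem cell fraction of the same line, sorted by the ALDEFLUOR assay for aldehyde dehydrogenase activity and grown in MammoCult medium. Both carried a lentiviral vector, with stable expression of an shRNA against KDM1A or of a control shRNA. Only 1 KDM1A shRNA is named, and no rescue. Whether duplicate libraries were grown as separate cultures is not stated, so p-values measure the spread between these libraries alone, and it may be technical.

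MHC class I molecules show fragments of a cell's own proteins to T cells and natural killer cells. A heavy chain pairs with B2M in the endoplasmic reticulum, where the TAP1 and TAP2 pump delivers peptides cut by the proteasome and TAPBP (tapasin) holds the empty molecule at the pump until a peptide binds. HLA-B and HLA-C are the classical, highly variable chains, HLA-E presents signal peptides of other class I chains to natural killer receptors, and HLA-F is a nonclassical chain. Transcription of these genes is driven by NF-kB, by interferon-induced factors, and by NLRC5, which joins RFX, CREB/ATF and NF-Y proteins on a conserved promoter module.

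Promoter stretches are shown here because matches to the patterns of that module, and of the NF-kB and interferon sites, differ between the members. RefSeq promoter windows, from 250 bases before to 50 after the start of a gene, were on hand for 7 of the 9 members (the other two are HLA-E and NLRC5). The heavy chain stretches below lie within the windows, written 5′ to 3′ on the strand of the gene, on GRCh38.p14. Capitals mark matches, on either strand, of an NF-kB pattern (GGG, any 2 bases, TT, any 1 base, CC), of an interferon-stimulated response element or ISRE (GAAA, any 2 bases, GAAA), and of TGACG (core of the X2 box, the CREB/ATF site) and CCAAT (the Y box, the NF-Y site). No matches of different patterns overlapped in these stretches. HLA-B lies at chr6:31357225-31357374 on the minus strand, HLA-C at chr6:31272138-31272287 on the minus strand and HLA-F at chr6:29723239-29723388 on the plus strand.
HLA-B: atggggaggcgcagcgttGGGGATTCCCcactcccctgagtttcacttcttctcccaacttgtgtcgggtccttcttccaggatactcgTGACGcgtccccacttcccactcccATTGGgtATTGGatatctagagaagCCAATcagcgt
HLA-C: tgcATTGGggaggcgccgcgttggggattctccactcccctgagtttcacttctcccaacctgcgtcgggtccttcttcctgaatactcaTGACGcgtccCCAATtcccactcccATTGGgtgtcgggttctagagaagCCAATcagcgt
HLA-F: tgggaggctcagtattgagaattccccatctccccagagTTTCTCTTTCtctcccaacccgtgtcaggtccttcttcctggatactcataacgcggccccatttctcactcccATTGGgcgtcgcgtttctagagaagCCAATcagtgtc

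Over the 250 bases before the start, HLA-B and HLA-C were identical at 89.0% of aligned positions. HLA-F matched HLA-B at 80.4% and HLA-C at 78.7%. The NF-kB pattern was found in the HLA-B window and not in those of HLA-C or HLA-F. TGACG was found in HLA-B and HLA-C, and the ISRE pattern in HLA-F alone of the 3. Only exact matches of each pattern were counted, so a missing match does not show that a site is absent.

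Matches in the light chain and loading genes are shown next, marked the same way. B2M is shown at chr15:44711347-44711476 on the plus strand. TAP1 is shown at chr6:32853755-32853854, TAP2 at chr6:32838750-32838849 and TAPBP at chr6:33314079-33314178, all on the minus strand.
B2M: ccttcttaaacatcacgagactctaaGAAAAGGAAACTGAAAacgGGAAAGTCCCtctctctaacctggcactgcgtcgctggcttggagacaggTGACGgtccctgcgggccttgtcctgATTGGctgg
TAP1: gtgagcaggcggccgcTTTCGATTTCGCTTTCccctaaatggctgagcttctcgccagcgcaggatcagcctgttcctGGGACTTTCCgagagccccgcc
TAP2: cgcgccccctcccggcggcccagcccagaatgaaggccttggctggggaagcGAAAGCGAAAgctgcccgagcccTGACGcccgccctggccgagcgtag
TAPBP: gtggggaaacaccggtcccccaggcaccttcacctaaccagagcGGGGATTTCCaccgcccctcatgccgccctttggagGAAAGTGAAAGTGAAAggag

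Among the 7 members with a window, 4 held the NF-kB pattern, against 5.67% of 34943 promoter windows of the same length. A member was counted when any of its windows matched, while the background counts single windows. TAP1 had a further window, at chr6:32852712-32853011, that matched none of the patterns. The ISRE pattern was in 5 of the 7, against 3.57% of all windows. TGACG was in 4 of the 7 (24.5% of all windows) and CCAAT in 5 (34.6%). The CCAAT match of TAP1 lies at −249 from the start, outside the stretch shown. TGACG and CCAAT were found together in HLA-B, HLA-C and B2M (8.69% of all windows), and neither in TAPBP. The 5 members with the ISRE pattern were HLA-F, B2M, TAP1, TAP2 and TAPBP. Any link between these patterns and the changes below was not tested. These matches describe letters; binding was not measured.

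Reads assigned to genes ranged from 23902900 to 25761937 in the KDM1A shRNA libraries and from 24250377 to 26923678 in the control shRNA libraries. KDM1A itself had 561 and 649 reads in KDM1A shRNA libraries and 4660 and 4059 reads in control shRNA libraries, so both knockdown libraries matched their labels. HTSeq set aside 29.8% and 29.7% of all alignments as not unique after KDM1A shRNA, and 32.2% and 31.9% in controls. Of 12 leucocyte markers, 3 were at 0 in every library and 2 were tested, with PTPRC (CD45) at 4 and 3 reads in KDM1A shRNA libraries and 2 and 2 in controls. Their summed level was 9.04 to 9.90 CPM (counts scaled by the library total) after KDM1A shRNA and 7.21 to 8.74 CPM in controls. CSF1R had 131 and 145 reads in KDM1A shRNA libraries and 43 and 50 reads in controls (log2 fold change 1.6, edgeR adjusted p = 2.8e-06). In the KDM1A shRNA libraries it had more reads than HLA-F, without scaling by length. CD14 had 67 and 85 reads after KDM1A shRNA and 136 and 152 reads in controls (−0.89, edgeR adjusted p = 0.00041). The line is known to lack CDKN2A at 9p21, yet CDKN2A had 13 and 19 reads in KDM1A shRNA libraries and 323 and 329 reads in control shRNA libraries. Summed over CDKN2A, CDKN2B and MTAP, 9p21 genes stood at 1.17 and 1.32 CPM after KDM1A shRNA and at 23.1 and 25.4 CPM in controls; none of the 3 was at 0 in every library. Of 6 luminal breast markers tested, 5 were higher (1 after rescaling to MDA-MB-231 genes) and FOXA1 was lower, with 9 and 8 FOXA1 reads after KDM1A shRNA and 22 and 32 reads in controls. The luminal list summed to 674.4 and 706.0 CPM after KDM1A shRNA and 552.0 and 564.8 CPM in controls. These lists moved with the groups in every result below, and their part in them was not tested.

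Class I presentation genes moved apart after KDM1A knockdown. All 4 heavy chains, TAP1 and TAPBP fell, TAP2 and NLRC5 rose, and B2M did not pass the test. In such bulk libraries, fewer cells of a kind and less RNA per cell cannot be told apart. Across all genes, 56.1% passed the edgeR quasi-likelihood test at an adjusted p under 0.05, with 27.3% higher and 28.8% lower. Of the 9 members 8 passed, 2 higher and 6 lower, against this high background. A change of 2-fold or more was seen in 1 member, HLA-F, and in 11.6% of all genes tested. The median log2 fold change of the 9 was −0.16, beside a median of −0.0047 over all 14012 genes. Fold changes set KDM1A shRNA over control shRNA throughout. With both groups scaled by TMM (trimmed mean of M-values), the 2 groups did not overlap in any of the 9 members. They did not overlap in 77.7% of all genes either. Below, CPM of single genes are scaled by TMM, and CPM of summed reads by the library total.

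**Figure D1:**
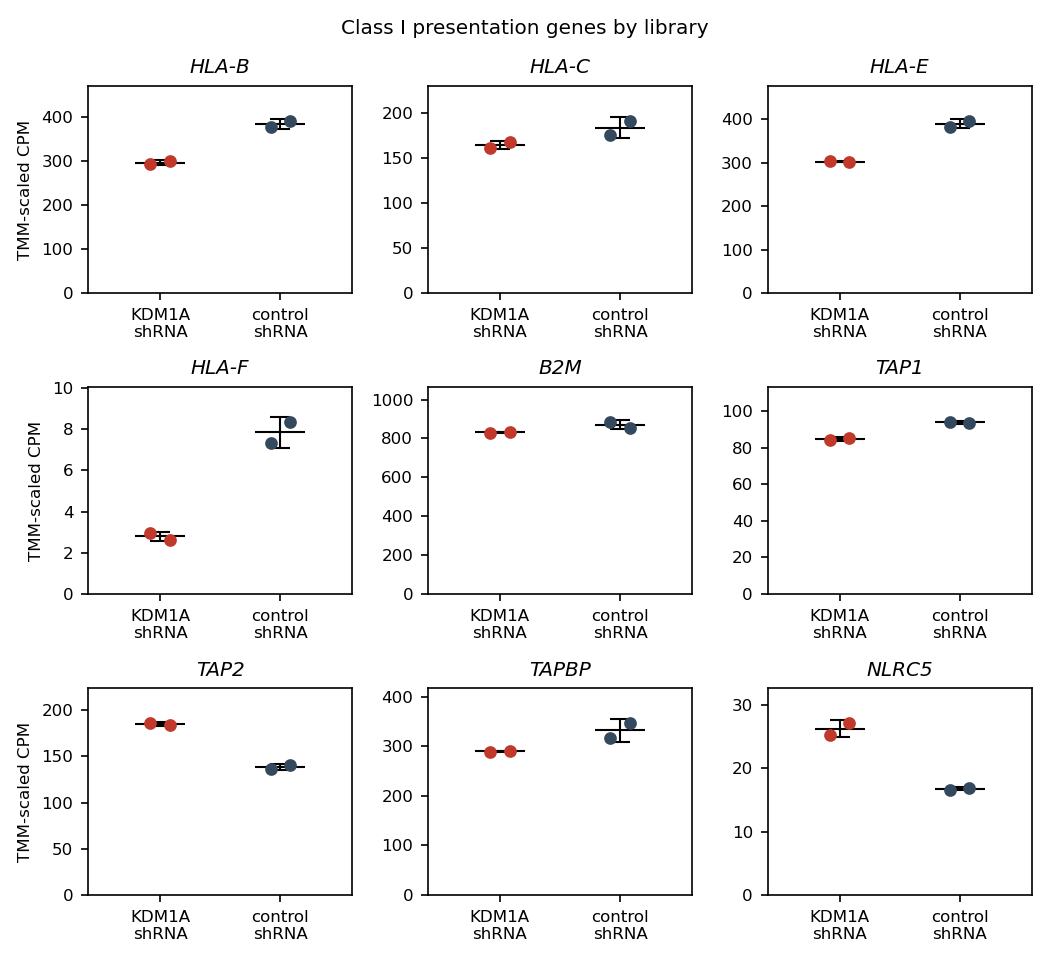
Level of each class I presentation gene in TMM-scaled CPM, with 1 point per library, a line at the mean and bars for the SD of 2 libraries; each panel has its own axis from 0. KDM1A shRNA points lie below control shRNA points in every panel except TAP2 and NLRC5, and the gap is widest in proportion for HLA-F.

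HLA-F, the nonclassical chain (chromosome 6, 29690552 to 29706305, plus strand, GRCh37), changed most among the members. It had 71 and 68 reads in KDM1A shRNA libraries and 196 and 203 reads in control shRNA libraries. Both knockdown libraries were far below both controls. Its level was 2.80 ± 0.23 CPM after KDM1A shRNA and 7.84 ± 0.74 CPM in controls (SD, 2 libraries each), which is 35.7% of control (log2 fold change −1.48, SE 0.15, edgeR adjusted p = 1.2e-06). Among all genes tested, 8.54% were lower by 2-fold or more. On the same scale CDKN2A stood at 4.99% of control, and a relation between the 2 changes was not tested. By GENCODE, HLA-F shares 674 exonic bases with an unnamed antisense gene, 535 with the antisense HLA-F-AS1 and 257 with the antisense pseudogene RPL23AP1. HLA-F-AS1 had 42 and 59 reads after KDM1A shRNA and 98 and 61 reads in controls, and was lower (log2 fold change −0.61, SE 0.23, edgeR adjusted p = 0.033). It did not pass without control library 1 (−0.31, adjusted p = 0.34) or KDM1A shRNA library 1 (−0.44, 0.20), in DESeq2 (0.15) or with counts thinned to the smallest library (0.050), all run after its values were seen. Whether counting used strand is not stated, so reads of overlapping genes cannot be told apart.

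HLA-B and HLA-E fell by nearly equal amounts. HLA-B, a classical chain (chromosome 6, 31321649 to 31334844, minus strand), had 7014 and 7755 reads in KDM1A shRNA libraries and 10092 and 9515 reads in controls. Its level was 296.7 ± 5.44 CPM after KDM1A shRNA and 384.5 ± 10.9 CPM in controls (log2 fold change −0.37, SE 0.04, edgeR adjusted p = 9.2e-07). HLA-E, the ligand of the CD94 and NKG2 receptors (chromosome 6, 30457286 to 30461971, plus strand), had 7249 and 7764 reads after KDM1A shRNA and 10231 and 9624 reads in controls. Both knockdown libraries lay below both controls in CPM for each of these genes. HLA-E stood at 301.8 ± 1.25 CPM after KDM1A shRNA and 389.4 ± 10.4 CPM in controls (−0.37, SE 0.04, edgeR adjusted p = 8.6e-07).

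HLA-C, the classical chain that natural killer cells read through KIR receptors (chromosome 6, 31236526 to 31239907, minus strand), fell less. It had 3861 and 4323 reads in KDM1A shRNA libraries and 4690 and 4647 reads in controls. In CPM the values were 161.2 and 167.5 after KDM1A shRNA and 175.1 and 191.6 in controls, so the groups were close but did not overlap. The log2 fold change was −0.16 (SE 0.05, edgeR adjusted p = 0.010). HLA-C did not pass with KDM1A shRNA library 1 left out (adjusted p = 0.16), and stood at −0.09 with control library 2 left out.

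Summed over the 4 heavy chain members, reads amounted to 761.2 and 772.8 CPM in KDM1A shRNA libraries and 936.3 and 989.2 CPM in control libraries. Fitted as 1 gene, the sum fell (log2 fold change −0.33, SE 0.04, edgeR adjusted p = 1.7e-06). Within that sum HLA-C made up 21.2% and 21.7% after KDM1A shRNA and 18.6% and 19.4% in controls, with 95% Wilson intervals of 20.6% to 22.3% and 18.1% to 19.9% over the 2 libraries of each group. HLA-F made up 0.390% and 0.341% after KDM1A shRNA and 0.778% and 0.846% in controls. Heavy chain genes are close paralogs and reads with several alignments were not counted, so their separate levels are uncertain. The share of alignments set aside was lower in the KDM1A shRNA libraries, as given above, and its part in the fall of the heavy chains was not tested.

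The light chain B2M (chromosome 15, 45003556 to 45011049, plus strand) had the most reads of the set. It had 19872 and 21527 reads in KDM1A shRNA libraries and 23755 and 20732 reads in controls. In CPM these were 829.7 and 834.3 after KDM1A shRNA and 887.0 and 854.6 in controls, so that the groups lay close together without overlap. The log2 fold change was −0.07 (SE 0.03) and did not pass (edgeR adjusted p = 0.11). B2M did pass, as lower, without control library 2 (−0.09, adjusted p = 9.3e-05), with upper quartile scaling (−0.09, adjusted p = 0.034) and with a minimum mean of 5 CPM (−0.09, adjusted p = 0.041).

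The 2 subunits of the peptide transporter went opposite ways. TAP2 (chromosome 6, 32789610 to 32806516, minus strand) had 4470 and 4745 reads in KDM1A shRNA libraries and 3656 and 3407 reads in controls. It rose to 185.3 ± 1.94 CPM after KDM1A shRNA, against 138.5 ± 2.78 CPM in controls (log2 fold change 0.42, SE 0.04, edgeR adjusted p = 5.8e-07), and its knockdown libraries lay above both controls. TAP1 (chromosome 6, 32812986 to 32821593, minus strand) had 2010 and 2200 reads after KDM1A shRNA and 2524 and 2263 reads in controls. It was 84.6 ± 0.95 CPM after KDM1A shRNA and 93.8 ± 0.68 CPM in controls (−0.15, SE 0.05, edgeR adjusted p = 0.012). TAP1 did not pass with KDM1A shRNA library 1 (adjusted p = 0.15) or library 2 (0.099) left out, or in DESeq2 (0.060).

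TAP1 starts 488 bases from PSMB9, a subunit of the immunoproteasome that is read in the other direction, as the RefSeq starts on GRCh38.p14 give it. PSMB9 had 380 and 398 reads in KDM1A shRNA libraries and 404 and 361 reads in controls (log2 fold change 0.06, SE 0.09, edgeR adjusted p = 0.57; −0.22, adjusted p = 0.031 after rescaling to MDA-MB-231 genes). A difference between the changes of these neighbours was not tested. By GENCODE, TAP1 shares 672 exonic bases with the antisense gene PSMB8-AS1, and TAP2 shares 2023 with an unnamed gene on its own strand. TAPBP shares 1397 and HLA-B 671 with unnamed antisense genes, and HLA-B shares 1421 with the pseudogene DHFRP2 on its own strand. Reads from these overlaps cannot be assigned with certainty.

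TAPBP, which encodes tapasin (chromosome 6, 33267471 to 33282061, minus strand), had 6921 and 7502 reads in KDM1A shRNA libraries and 8458 and 8444 reads in controls. The level was 289.9 ± 1.25 CPM after KDM1A shRNA and 332.0 ± 22.8 CPM in controls, where the 2 libraries stood at 315.8 and 348.1 CPM. Both knockdown libraries were lower than the lower control. TAPBP fell by 0.20 on the log2 scale (SE 0.04, edgeR adjusted p = 0.0017), and by 0.12 without control library 2 (adjusted p = 8.6e-05).

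NLRC5, the class I transactivator (chromosome 16, 57023397 to 57117443, plus strand), rose, whereas every heavy chain member fell. It had 605 and 702 reads in KDM1A shRNA libraries and 444 and 411 reads in controls. The level was 26.2 ± 1.38 CPM after KDM1A shRNA and 16.8 ± 0.26 CPM in controls, a 1.57-fold rise (log2 fold change 0.65, SE 0.08, edgeR adjusted p = 6.1e-06). The groups were far apart next to their spread.

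A rescaling that set the median change of 10 genes known to mark MDA-MB-231 to 0 turned no member's direction. It moved the median of all genes to −0.29 and the share of higher genes among all calls to 13.1%, against 48.7% with TMM. Relative to that shift TAP2 stood at 0.14 and NLRC5 at 0.36, both still past the threshold (edgeR adjusted p = 0.0073 and 0.00077). B2M then passed as lower (−0.35, edgeR adjusted p = 4.3e-07), HLA-B and HLA-E stood at −0.66 and −0.65, and HLA-C, TAP1 and TAPBP at −0.44, −0.43 and −0.48. Those 10 genes did not move as one, with 6 higher and 4 lower and log2 fold changes of −0.33 to 1.09.

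**Figure D2:**
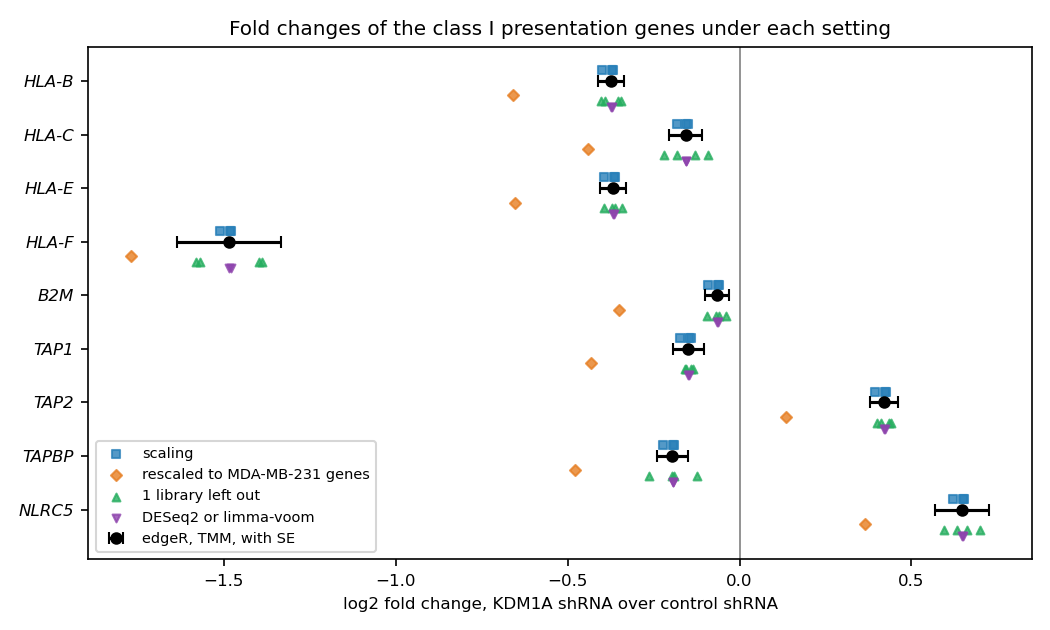
Log2 fold change, KDM1A shRNA over control shRNA, of each member in the edgeR fit (black, with SE) and under other scalings, tools and sets of libraries (coloured markers). NLRC5 and TAP2 stay right of 0 and the others left of 0 under each setting drawn; the rescaling to MDA-MB-231 genes lies left of the rest, as for B2M at −0.35 against −0.07.

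Ratios of reads within a library do not depend on the scaling between libraries. TAP2 had 222.4 and 215.7 reads per 100 TAP1 reads in KDM1A shRNA libraries and 144.8 and 150.6 in control libraries. Per 100 B2M reads, HLA-B had 35.3 and 36.0 after KDM1A shRNA and 42.5 and 45.9 in controls, and HLA-E had 36.5 and 36.1 after KDM1A shRNA and 43.1 and 46.4 in controls. These ratios did not overlap between groups. HLA-C had 19.4 and 20.1 per 100 B2M reads after KDM1A shRNA and 19.7 and 22.4 in controls, where the groups overlapped. NLRC5 had 3.04 and 3.26 per 100 B2M reads after KDM1A shRNA and 1.87 and 1.98 in controls, and HLA-F had 0.357 and 0.316 after KDM1A shRNA and 0.825 and 0.979 in controls. With 2 libraries against 2 an exact two-sided permutation test cannot give a p below 0.333, so the ratios were not tested. How often ratios of other genes stand apart was not counted, and 77.7% of all single genes did not overlap. The ratios describe unequal change in these libraries and not which gene moved.

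**Figure D3:**
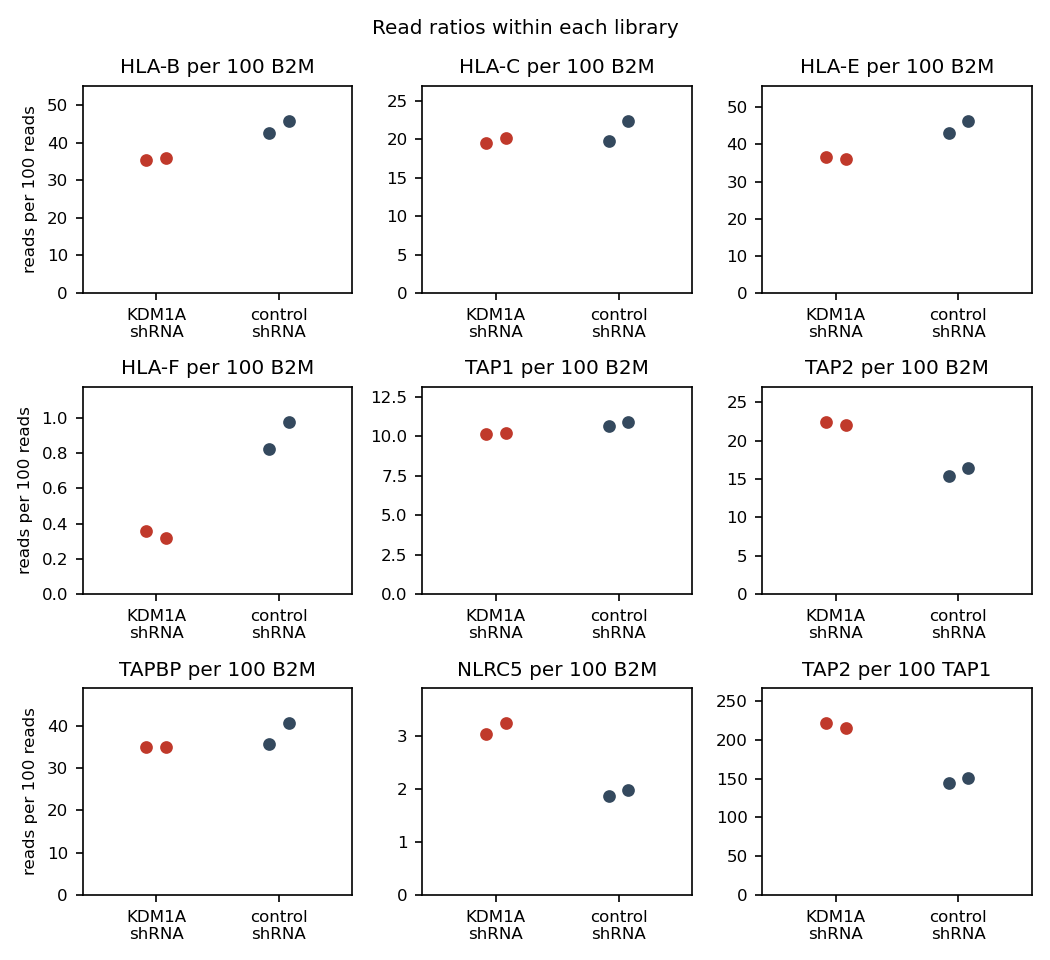
Reads of 1 gene per 100 reads of another in the same library, with 1 point per library and each axis from 0. The groups stand apart in 8 of the 9 panels, and HLA-C per 100 B2M reads overlaps. TAP2 per 100 TAP1 reads is at 222.4 and 215.7 after KDM1A shRNA and 144.8 and 150.6 in controls. All other panels share B2M as denominator. The groups did not overlap in 77.7% of all single genes, and the share over other ratios was not counted.

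Levels of different genes were compared per length, as RPKM (reads scaled by exon length and by library total). B2M was highest, at 267.1 ± 0.96 RPKM after KDM1A shRNA and 278.3 ± 6.21 RPKM in controls. HLA-E followed at 103.5 ± 0.46 RPKM after KDM1A shRNA and 132.9 ± 4.08 RPKM in controls. HLA-B was at 64.3 ± 1.16 RPKM after KDM1A shRNA and 83.0 ± 2.68 RPKM in controls, and HLA-C at 65.7 ± 1.77 RPKM and 73.0 ± 4.92 RPKM in the same groups. By this length HLA-B was above HLA-C in controls, while the 2 were within their spread of each other after KDM1A shRNA. By the longest transcript, HLA-B was at 83.8 ± 1.51 RPKM and HLA-C at 87.6 ± 2.36 RPKM after KDM1A shRNA. In controls these were 108.1 ± 3.49 RPKM and 97.3 ± 6.56 RPKM. The gap after KDM1A shRNA was then wider than either SD, so how close the 2 stood depends on the length used.

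TAPBP came next, at 43.7 ± 0.18 RPKM after KDM1A shRNA and 49.8 ± 3.62 RPKM in controls. TAP1 stood at 17.9 ± 0.20 RPKM after KDM1A shRNA and 19.7 ± 0.064 RPKM in controls, and TAP2 at 17.9 ± 0.19 RPKM and 13.3 ± 0.32 RPKM in the same groups. By exon length the transporter subunits could not be told apart after KDM1A shRNA, whereas TAP1 was above TAP2 in controls. By the longest transcript, TAP1 was at 30.34 ± 0.33 RPKM and TAP2 at 29.96 ± 0.32 RPKM after KDM1A shRNA. That gap was slightly wider than either SD, though values of single libraries overlapped. By exon length again, NLRC5 and HLA-F were lowest. NLRC5 was at 2.12 ± 0.11 RPKM after KDM1A shRNA and 1.35 ± 0.026 RPKM in controls. HLA-F was at 0.650 ± 0.054 RPKM after KDM1A shRNA and 1.81 ± 0.18 RPKM in controls. HLA-F was above NLRC5 in controls and below it after KDM1A shRNA. That order held with the length of the longest transcript, by which HLA-F was at 1.82 RPKM after KDM1A shRNA and 5.07 RPKM in controls.

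Around these members, the interferon gamma receptor chains and the kinase JAK1 fell while the direction of other parts of the pathway was mixed with TMM. Under the rescaling to MDA-MB-231 genes, calls moved towards lower, since it shifted all genes. Of all 14012 genes tested, 8635 were then called lower and 1300 higher. The rescaled counts of each list below stand against that background. Of 10 genes of interferon receptors and signalling, 7 fell and 1 rose, with a median log2 fold change of −0.43 beside −0.0047 for all genes. IFNGR1, the ligand-binding chain of the interferon gamma receptor, had 2009 and 2341 reads in KDM1A shRNA libraries and 4340 and 3691 reads in controls (log2 fold change −0.85, SE 0.05, edgeR adjusted p = 3.5e-09). Its partner chain IFNGR2 (−0.56), the kinase JAK1 (−0.43) and the phosphatase PTPN2, which restrains this signalling (−0.51), also fell.

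Enhanceosome proteins and other regulators went both ways, with 10 higher, 13 lower and 7 not called of 30, and a median of −0.037 (2 higher and 22 lower under the rescaling). Noncanonical NF-kB subunits fell, NFKB2 by 0.81 (SE 0.04) and RELB by 0.87 (SE 0.08) on the log2 scale. IRF1, an interferon-induced activator of class I promoters, rose (0.51, SE 0.07, edgeR adjusted p = 3.2e-05), with 878 and 869 reads after KDM1A shRNA and 632 and 623 reads in controls. The Polycomb methyltransferase EZH2 was higher (0.55, SE 0.05). RFX5, the DNA-binding subunit of RFX, was slightly higher (0.14, SE 0.04, edgeR adjusted p = 0.013; −0.15 under the rescaling), but did not pass with KDM1A shRNA library 1 (adjusted p = 0.13) or library 2 (0.12) left out. CIITA, the class II transactivator, was slightly lower (−0.22, SE 0.08, edgeR adjusted p = 0.033), and did not pass when control library 1 (adjusted p = 0.091) or either KDM1A shRNA library (0.21 and 0.079) was left out. IRF8, a factor of myeloid and B cells, had 0 and 1 reads after KDM1A shRNA and 24 and 34 reads in controls, and so moved with the 9p21 genes.

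Peptidases that trim peptides depended on the scaling. With TMM 5 were higher, 1 lower and 3 not called of 9, with a median of 0.14; under the rescaling 2 were higher (ERAP1 and ERAP2), 6 lower and 1 not called, with a median of −0.14. ERAP1, which trims peptides in the endoplasmic reticulum, had 2939 and 3269 reads in KDM1A shRNA libraries and 2626 and 2131 reads in controls (0.42, SE 0.05, edgeR adjusted p = 8.3e-06). Its relative ERAP2 rose (0.58, SE 0.10), as did the cytosolic peptidase THOP1 (0.36), which lost its call under the rescaling (0.08, adjusted p = 0.24). NRD1 was lower (−0.13), a call lost without KDM1A shRNA library 1 (edgeR adjusted p = 0.13) or library 2 (0.10).

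Proteasome subunits depended on the scaling too. With TMM, 1 of 7 genes of the immunoproteasome and its activator rose and 1 fell, and the constitutive beta subunits PSMB5 (−0.10), PSMB6 (0.08) and PSMB7 (−0.0093) did not pass in edgeR. Under the rescaling 6 of the 7 were lower, beside 8635 of all 14012 genes. So were PSMB5 (−0.38, edgeR adjusted p = 1.1e-06), PSMB6 (−0.20, 0.0014) and PSMB7 (−0.29, 1.7e-05). PSMB8 (0.11, SE 0.05, edgeR adjusted p = 0.072) and PSMB10 (0.04, SE 0.09), the other catalytic subunits induced by interferon, did not pass with TMM. The proteasome activator subunit PSME3 rose (0.35) and PSME1 fell (−0.14). PSME3 lost its call under the rescaling (0.07, adjusted p = 0.12), and PSME1 lost it without KDM1A shRNA library 1 (0.13) or library 2 (0.096). PSMB5 also passed as lower with upper quartile scaling (adjusted p = 0.018), with a minimum mean of 5 CPM (0.020) and without control library 1 (0.020) or 2 (0.039), PSMB8 as higher without control library 1 (0.037) and PSMB6 as higher without control library 1 (0.012).

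Chaperones and editors of loading were split, with 4 higher, 5 lower and 4 not called of 13 tested (10 lower under the rescaling). HSPA5 (BiP), which holds unfolded chains, fell by 0.33 on the log2 scale, TMED10 by 0.24 and PDIA3, a partner of tapasin, by 0.20. HM13, a signal peptide peptidase, was higher (0.28; −0.0057 under the rescaling to MDA-MB-231 genes). CALR, the chaperone of the loading complex, was at 0.02 (SE 0.03, edgeR adjusted p = 0.59) and passed as higher without control library 1 (adjusted p = 0.037) and as lower under the rescaling (−0.26, 7.8e-06).

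Among 12 tested class I-like molecules 5 rose and 5 fell, with a median of 0.06 (3 higher and 6 lower under the rescaling). RAET1E, a ligand of the NKG2D receptor, had 135 and 153 reads in KDM1A shRNA libraries and 63 and 48 reads in controls (1.41, SE 0.17, edgeR adjusted p = 5.1e-06). The NKG2D ligand MICB (0.27) and the protein C receptor PROCR (0.34) rose by less, at −0.0092 and 0.05 under the rescaling, where neither passed. AZGP1, a secreted class I-like protein, had 63 and 78 reads after KDM1A shRNA and 185 and 143 reads in controls (−1.18, SE 0.16).

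Of the 4 other heavy chain genes and pseudogenes reported, 2 fell and 2 did not pass. HLA-G, a nonclassical chain best known from placenta, had 142 and 42 reads in KDM1A shRNA libraries and 224 and 190 reads in controls. The 2 knockdown libraries were far apart. HLA-G was lower (log2 fold change −1.12, SE 0.31, edgeR adjusted p = 0.0064), at −2.31 without KDM1A shRNA library 1 and −0.45 without library 2, and did not pass in DESeq2 (adjusted p = 0.31). The pseudogene HLA-J was lower (−0.41, edgeR adjusted p = 0.033), a call lost with each library left out in turn (adjusted p = 0.058 to 0.15) and in DESeq2 (0.20). HLA-H (0.08) and HLA-L (−0.25) did not pass, but all 4 were lower under the rescaling.

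Genes of surface turnover were higher in 4 and lower in 1 of 10 tested, with a median of 0.06 (7 lower under the rescaling). The ubiquitin ligase MARCH9, which removes class I molecules from the surface, fell (−0.50, SE 0.12, edgeR adjusted p = 0.0020). WWP2 (0.35), TMEM129 (0.30) and TMEM127 (0.22) were higher, and all 3 lost their calls under the rescaling, where TMEM127 stood at −0.06.

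**Figure D4:**
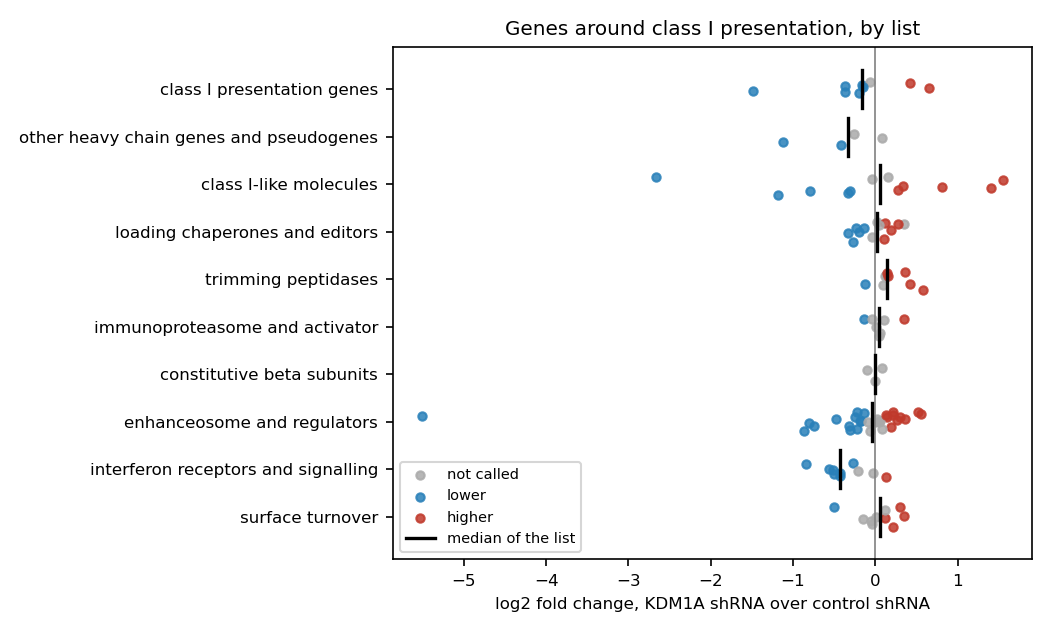
Log2 fold change, KDM1A shRNA over control shRNA, of each tested gene in 10 lists around class I presentation, coloured by call at an edgeR adjusted p under 0.05, with a black bar at each list's median. The interferon receptor list has the lowest median, −0.43, and the class I presentation genes range from −1.48 (HLA-F) to 0.65 (NLRC5). The point far to the left is IRF8, with 0 and 1 reads after KDM1A shRNA, whose fitted fold change depends on the prior count.

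For each member, the most alike of 98 tested list genes was found by Euclidean distance between centred log2 CPM values over the 4 libraries. TAP1 lay nearest to GANAB (distance 0.011), the glucosidase of glycoprotein folding. HLA-B lay nearest to HLA-J (0.061), HLA-E to IRF3 (0.059) and B2M to MICA (0.039). HLA-C and TAPBP lay nearest to STAT2 (0.073 and 0.071), TAP2 to PSME3 (0.087) and NLRC5 to EZH2 (0.14). HLA-F had no close match, its nearest being AZGP1 at 0.49.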

How the data were processed

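The deposited files hold 1 raw count of reads per gene symbol for each library, not normalized. The build was hg19 and the tools named were CASAVA 1.8.2, TopHat2 2.0.8b and HTSeq, per the submitters' processing notes; the strand setting and annotation release are not given in the sources used here. The 5 HTSeq summary lines were kept out of totals and fits. The counts of 23228 genes were fitted with edgeR 4.0.16 in R 4.3.3 (TMM scaling, filterByExpr with a minimum count of 10 and a minimum total of 15, quasi-likelihood test, group as the only term), and p-values were adjusted by the Benjamini-Hochberg method over the 14012 genes tested. The code was tested on simulated counts. The SE was derived as |log2 fold change| over the root of F. A count of 0 allows up to 3 reads, or 0.111 to 0.126 CPM. Intervals cover counting error only.

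The members, lists and named genes were chosen with earlier results of these data known. Named genes are the members, KDM1A, 11 fixed genes, and per list up to 4 genes of lowest p. Some genes of these lists and of this rule are not reported here. Gene positions and lengths are from GENCODE 44 on GRCh37, which is the assembly of hg19, and promoter sequences from RefSeq on GRCh38.p14. Alternatives were RLE, upper quartile and library size scaling, a rescaling to known MDA-MB-231 genes, other count filters, DESeq2 1.42.0, limma-voom (limma 3.58.1), thinned counts, the replicate number as a block, each library left out, summed heavy chain reads and another gene length.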

Additional observations from a re-analysis of the deposited data

How the results depend on the processing

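Under the 14 alternatives, no member changed direction. HLA-B, HLA-E, HLA-F, TAPBP, TAP2 and NLRC5 kept their calls in all 14, HLA-C in 13 and TAP1 in 11, while B2M passed in 4. The members called were 2 higher in each alternative and 4 to 7 lower, and genes called over the whole table ranged from 5978 to 9935, against 7861. With 1 library left out these were 4 to 7 lower members and 5978 to 8209 genes. The cause of these changes was not tested. The 2 control libraries differed more from each other (chi-square per degree of freedom 3.97) than the 2 KDM1A shRNA libraries did (1.6). With 1 KDM1A shRNA library left out, the spread comes from the control pair alone. A call lost in that fit need not mean that it rested on the library left out. Same-numbered libraries did not deviate together (r = 0.040 across genes), so no shared effect of the replicate number was seen. The labels do not say whether these libraries were prepared as pairs. With the replicate number as a block 8142 genes were called, and 2 members were higher and 6 lower. Rescaling to MDA-MB-231 genes reversed small changes: HLA-H −0.21, MICB −0.0092, HM13 −0.0057, PSMB8 −0.17, PSMB9 −0.22, PSMB6 −0.20, PSMB10 −0.24, TMEM127 −0.064, CALR −0.26 and RFX5 −0.15. CALR stood at −0.0031 with upper quartile scaling. With 1 library left out, CALR ranged from −0.0055 to 0.051, PSMB7 from −0.046 to 0.031 and PSMB10 from −0.093 to 0.18. HLA-F, with 68 to 203 reads, is the member that depth limits most.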
